A study of Mus musculus with 6 samples.

Results

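Voltage-gated sodium and calcium channel subunits were encoded by 37 of the 18560 genes counted in single cells of the adult mouse olfactory bulb: 11 sodium channel genes (symbols with Scn and a digit) and 26 calcium channel genes (symbols that begin with Cacn). A channel of either family has 1 large pore-forming subunit, called alpha in sodium channels and alpha1 in calcium channels, which senses the membrane voltage and opens a gate. Sodium channels of the axon start the action potential. Calcium channels let calcium enter on depolarization, which triggers transmitter release, shapes firing and signals to the nucleus. Smaller beta subunits accompany both families, and calcium channels also carry alpha2delta subunits, which bring the pore to the membrane. Several genes named as calcium channel gamma subunits encode transmembrane AMPA receptor regulatory proteins (TARPs), which escort glutamate receptors to the synapse. In the olfactory bulb, mitral and tufted cells (M/T cells) send the output to the cortex as action potentials, whereas most granule cells (GCs) have no axon and release GABA from dendrites when calcium enters their spines.

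The 6 libraries came from olfactory bulbs of C57BL/6NJ mice aged 14 weeks, per the methods of the study, with 2 libraries per condition. Control libraries are given as without manipulation, and naris occluded libraries came from mice with a plug in the nostril. Trained libraries came from water-deprived mice taught to discriminate odors for a water reward. Olfactory deprivation and training lasted 6 weeks. The methods name water deprivation for the trained mice only, so in the trained libraries it cannot be told apart from training. Occlusion was of 1 side only, and the text of the study names both naive mice and the open side of occluded mice as the control, so which of them gave the control libraries was not settled here. Each library pooled 3 mice per a supplementary figure of the study, males in replicate 1 and females in replicate 2, and no allele or agent was shared by the groups. Xist, the transcript of the inactive X chromosome, had at most 5 UMIs (unique molecular identifiers, each a counted RNA molecule) in any replicate 1 library and at least 20000 in every replicate 2 library. Sex and replicate number cannot be told apart.

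The count table held 52549 cell barcodes, of which 51426 had a cluster in the annotation of the authors. Their second annotation placed 21746 neurons in 18 clusters, and 28925 cells fell in 22 nonneuronal clusters of the first. Libraries held 11841160 to 17065083 UMIs, and the median per cell lay between 1028 UMIs in trained replicate 1, which also had the highest median mitochondrial share at 14.4%, and 1723.5 UMIs in naris occluded replicate 1. The starts of the barcode names of 17275 cells of the trained libraries were reversed against the library column, which was used because it fits the sex-linked genes, and 1461 barcode sequences occurred in more than 1 library. The neuronal clusters are called here by the numbers of the authors: sensory neurons are n01, immature neurons n04, periglomerular cells (PGCs) n02, n05 and n08, granule cells n03, n07, n09 to n12 and n14, a transition state n06, an astrocyte-like cluster n13, M/T cells n15 to n17 and interneurons of the external plexiform layer n18. A level below is the count of a gene summed over the cells of a cluster in 1 library, divided by all UMIs of that cluster and library and scaled to 1000000 UMIs (CPM), and is given as mean ± SD over the 6 libraries. Summed over 4 mitral and tufted cell markers, levels were 1435 CPM in n15, 1780 CPM in n16 and 4351 CPM in n17, and at most 486 CPM in any other neuronal cluster, while 3 immature markers summed to 4098 CPM in n04. Fewer cells with a transcript and less transcript per cell give the same CPM. The clusters were made from these same cells, so differences between clusters are descriptions without a test. The smallest library of a cluster held 6 cells in n15, 8 in n16 and 16 in both n08 and n18, and values there vary the most.

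Of the 7 genes for sodium channel alpha subunits, 5 lie on chromosome 2 between bases 65457118 and 66784910 of the assembly GRCm38.p6. This span of 1327.793 kb runs from Scn3a through Scn2a (Scn2a1 in the count table), Scn1a and Scn9a to Scn7a. It has a gap between the end of Scn2a at base 65767447 and the start of Scn1a at base 66270781. Scn8a lies on chromosome 15. The calcium channel gamma genes Cacng5, Cacng4 and Cacng1 are neighbors on chromosome 11, and Cacng6, Cacng7 and Cacng8 lie on chromosome 7. Promoter sequences, taken as the 250 bases before a transcription start, came from RefSeq for this assembly and were found for 27 of the 37 genes, at 38 start sites. They are shown for 6 genes with their highest means in n18, n16 or n07 and with promoters that differ widely in CG content. Each CG dinucleotide is in capitals. Of the 6, only Cacng2 had all libraries of its highest cluster above those of the next. Scn1a (chr2:66440838-66441087, minus strand) and Scn2b (chr9:45117626-45117875, plus strand) were highest in n18. Cacna1i (chr15:80286988-80287237, plus strand) and Cacng2 (chr15:78119281-78119530, minus strand) were highest in n16. Cacna1e (chr1:154725921-154726170, minus strand) and Cacna2d1 (chr5:15934441-15934690, plus strand) were highest in n07. The windows of Cacng2, Cacna1e and Cacna2d1 lie within the bounds of their genes. That of Cacna1e, whose gene spans bases 154390806 to 154884785, lies far inside, at the 1 start site found for it.
Scn1a: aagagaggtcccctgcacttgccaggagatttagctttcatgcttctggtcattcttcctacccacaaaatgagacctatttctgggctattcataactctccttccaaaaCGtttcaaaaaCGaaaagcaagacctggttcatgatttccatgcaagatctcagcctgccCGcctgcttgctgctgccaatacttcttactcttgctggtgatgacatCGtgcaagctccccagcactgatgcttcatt
Scn2b: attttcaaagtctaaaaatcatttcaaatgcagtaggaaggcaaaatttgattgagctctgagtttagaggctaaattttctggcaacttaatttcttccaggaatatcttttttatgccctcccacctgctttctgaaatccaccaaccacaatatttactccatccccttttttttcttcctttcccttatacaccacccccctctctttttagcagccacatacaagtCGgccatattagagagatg
Cacna1i: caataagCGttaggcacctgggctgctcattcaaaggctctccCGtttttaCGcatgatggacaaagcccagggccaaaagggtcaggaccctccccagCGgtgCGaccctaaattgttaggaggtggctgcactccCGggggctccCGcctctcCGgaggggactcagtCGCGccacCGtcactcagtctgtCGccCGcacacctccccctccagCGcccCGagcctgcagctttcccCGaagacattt
Cacng2: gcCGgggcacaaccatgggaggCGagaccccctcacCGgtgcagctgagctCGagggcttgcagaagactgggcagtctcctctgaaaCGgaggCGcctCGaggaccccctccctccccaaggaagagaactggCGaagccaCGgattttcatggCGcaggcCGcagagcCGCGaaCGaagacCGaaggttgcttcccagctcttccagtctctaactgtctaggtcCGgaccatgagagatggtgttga
Cacna1e: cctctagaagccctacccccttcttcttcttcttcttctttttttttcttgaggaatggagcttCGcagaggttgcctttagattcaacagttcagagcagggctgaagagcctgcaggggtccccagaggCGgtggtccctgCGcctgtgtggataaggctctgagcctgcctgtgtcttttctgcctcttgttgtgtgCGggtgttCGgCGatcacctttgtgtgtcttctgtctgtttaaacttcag
Cacna2d1: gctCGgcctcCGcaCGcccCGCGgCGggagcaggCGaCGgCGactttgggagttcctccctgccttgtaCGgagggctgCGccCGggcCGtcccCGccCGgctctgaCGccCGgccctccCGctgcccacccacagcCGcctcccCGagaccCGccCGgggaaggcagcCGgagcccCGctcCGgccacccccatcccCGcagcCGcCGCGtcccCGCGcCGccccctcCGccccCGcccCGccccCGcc

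Scn2b had 1 CG in this window and Scn1a 4, Cacna1e 6, Cacna1i and Cacng2 16 each and Cacna2d1 36, more than 97.4% of the 32851 promoters of the table. Over all promoters the median was 6, against 9 over the 38 start sites of channel genes. A GC box (GGGCGG, or CCGCCC on the other strand) stood in 15 of the 38 windows, or 39.5%, against 32.7% of all promoters. A TATA box (TATAAA, or TTTATA) stood in 2 of 38, or 5.26%, against 12.4%. These 6 genes were chosen partly for their CG content, so no relation of CG to cluster can be read from them. Other genes with the same highest cluster differed. Cacng3, also highest in n16, had 8 CG. Of genes also highest in n18, Scn2a1 had 2 and 9 CG at its 2 start sites, Scn7a 3 and the rare Scn4b 23. A match of letters is a description of the window and not a site of binding.

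Channel genes were above all neuronal. Their 70614 UMIs were drawn from neurons in 72.3%, while neurons held 34.6% of all UMIs. A mean of 20 CPM in at least 1 neuronal cluster was reached by 31 of the 37 genes (83.8%), and by 10677 of all 18560 genes (57.5%). The highest mean was in 1 of the 3 M/T clusters for 11 genes, in n07 for 6 and in n18 for 5. Neither these counts nor those of the next sentence were made over all genes, so they show no trait particular to channel genes. Means in the small clusters n15, n16 and n18 also vary the most. Neighbors in the order of clusters were rarely apart: the 6 libraries of the highest cluster lay wholly above those of the next for only 2 of the 31 genes, Cacna1h in n07 and Cacng2 in n16, and the highest cluster exceeded the next in every library for 2 more, Cacna1i in n16 and Cacnb4 in n15. Summed over all 37 genes, levels were 3893 ± 780.2 CPM in n18, 3691 ± 308 CPM in n17 and 3125 ± 182 CPM in n07. They were 898 ± 93.6 CPM in n04 and 468 ± 80.1 CPM in the sensory neurons of n01. The median UMI per cell was 865 in n17, 882 in n07, 808.5 in n01 and 1668 in n04. Across the 18 clusters the Spearman correlation of the summed level was −0.17 with median UMI, 0.16 with the mitochondrial share and 0.42 with Meg3, a nuclear noncoding RNA abundant in neurons. The map of mean levels shows that no column was bright in every subunit class.

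**Figure D1:**
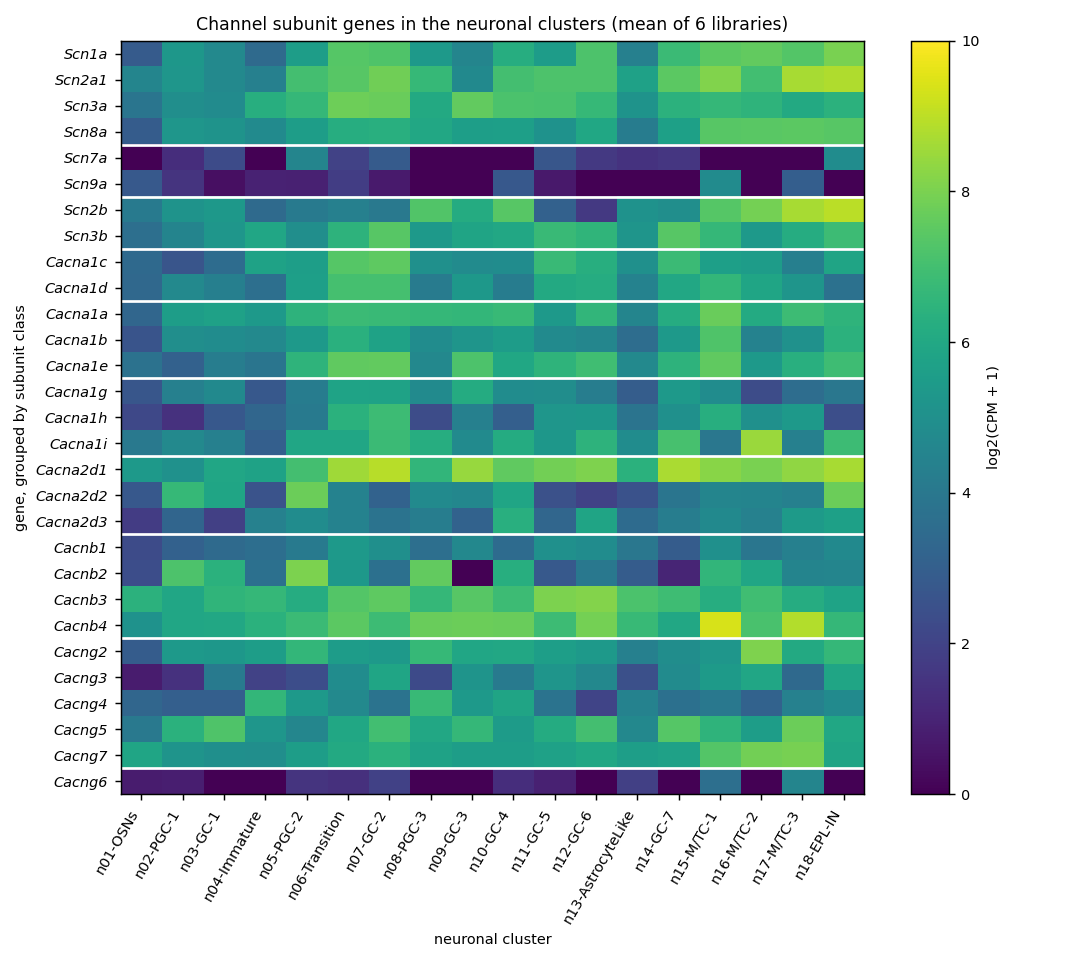
Mean level of 29 channel genes that reached 20 CPM, as log2(CPM + 1) over 6 libraries, with neuronal clusters on the x axis, genes on the y axis and white lines between subunit classes. The 2 most abundant rows by cluster are Cacnb4 in n15 (669 CPM) and Scn2b in n18 (503 CPM), and n01 is dark in most rows.

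Of the 4 alpha genes of the brain, Scn2a1, which is used early in axons and in unmyelinated fibers, had levels of 308, 405 and 499 CPM (lowest, median and highest library) in n17 and of 200.4, 229 and 255 CPM in n07. In n04 they were 15.4, 19.9 and 24.1 CPM. Every library of n17 and n07 was therefore above every immature library. The highest mean was in n18 at 446 ± 215 CPM, where the libraries spread from 179.5 to 702 CPM, and this cluster was too small to be compared between conditions. Summed over 4 markers of ensheathing cells, the libraries of n18 held 233 to 13314 CPM and those of n15 held 346 to 7918 CPM. The part of this in the levels of either cluster was not tested. Scn1a, the alpha subunit best known from inhibitory neurons with fast spiking, was also highest in n18 at 256 ± 113 CPM, with libraries of 147, 215 and 433 CPM. It was 194 ± 125 CPM in n16, 149.9 ± 21.9 CPM in n07 and 9.84 ± 2.80 CPM in n04. The ranges of n18 and n16 overlapped for this gene, and those of n07 and n04 did not.

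Scn3a, the alpha subunit of the embryonic brain, had another order. Its highest means were in n06 (219 ± 55.7 CPM), n07 (209 ± 28.5 CPM) and n09 (193 ± 22.5 CPM), the 3 clusters that the study placed on 1 of its axes of maturation, and these did not differ beyond their spread. In n04 the libraries held 62.8, 71.0 and 99.5 CPM, close to the 66.9 ± 27.7 CPM of n17 and above the 27.3 ± 11.8 CPM of n03. Scn8a, the alpha subunit of mature axon initial segments and nodes, was between 167 and 178 CPM in the 3 M/T clusters and n18, with 126, 175 and 245 CPM in n17 and wide ranges in the others. It was 26.4 ± 4.31 CPM in n04 and 78.4 ± 16.2 CPM in n07.

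UMIs carry no term for transcript length, so the 4 genes can be set beside each other as shares of their summed UMIs. Scn3a held 57.3 ± 2.30% of them in n04 and 68.5 ± 9.98% in n09, against 31.5 ± 3.0% in n07 and 8.35 ± 3.38% in n17. Scn2a1 held 14.9 ± 1.88% in n04, 34.1 ± 1.55% in n07, 40.3 ± 4.89% in n11 and 50.4 ± 5.38% in n17. Scn1a went from 7.46 ± 1.46% in n04 to 22.6 ± 2.79% in n07. Scn8a had its highest share in n03 at 30.9 ± 7.49%. Scn3a thus led in the immature neurons and Scn2a1 in n17. In the small M/T clusters Scn2a1 did not lead, with 23.1 ± 12.5% in n16 and 33.2 ± 21.2% in n15, where Scn1a held 33.7 ± 13.8% and 34.6 ± 33.2%. After thinning each cell to 500 UMIs, 4.12% of 3910 cells of n04 and 10.0% of 3608 cells of n07 had a UMI of Scn3a. Without thinning the shares were 11.2% and 18.3%, and in cells of MicroG1, microglia with a median of 2336 UMIs that should lack the gene, they were 0.380% thinned and 0.759% without thinning.

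Scn7a and Scn9a were rare. Scn7a, whose product responds to sodium concentration rather than voltage, was 22.6 ± 9.51 CPM in n05, the Th-positive PGCs. It was 27.8 ± 32.1 CPM in n18, where the lowest library was at 0. In n04 no UMI of Scn7a was seen in any library, which allows up to 0.450 CPM for counting error. Scn9a, a channel of sensory neurons in pain pathways, was at 27.6 ± 43.6 CPM in n15, with a median of 0. These values rest on 136 UMIs of Scn7a and 52 of Scn9a over all cells. A UMI of Scn9a was seen in 3 of 90 cells of n15, and in 7 cells each of n04 and n17. For Scn7a it was 3 of 161 cells of n18 and 22 of 377 cells of n05, with 18 cells in n11 and 17 in n07.

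Sodium channel beta subunits, which set gating and anchor the pore by their extracellular domain, were highest in output neurons and n18 for Scn2b and in granule cells for Scn3b. Scn2b was 503 ± 229 CPM in n18 and 416 ± 36.2 CPM in n17, and it split the interneurons: n10 had 170.0 ± 40.0 CPM and n08 had 154 ± 65.0 CPM, whereas n11 had 7.57 ± 2.5 CPM, n12 had 2.14 ± 5.25 CPM and n07 had 15.4 ± 3.04 CPM. Each library of n10 (127 to 244 CPM) was above each library of n07 (10.8 to 18.6 CPM), although n07 was higher in Scn1a and Scn2a1. Scn3b was 168 ± 31.1 CPM in n07 and 167 ± 48.1 CPM in n14, and 60.2 ± 10.2 CPM in n04. Scn4b, the beta subunit tied to resurgent sodium current, had 24 UMIs in all and a mean under 20 CPM everywhere.

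**Figure D2:**
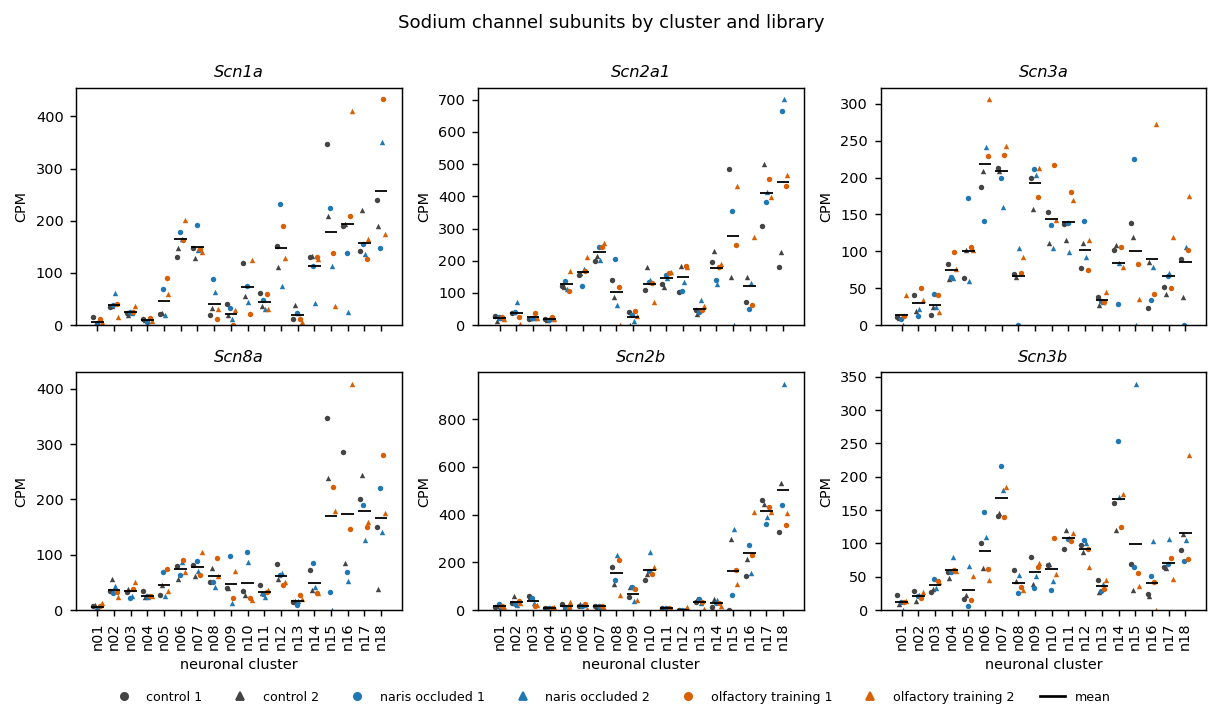
Levels in CPM (y axis, linear) of 4 sodium channel alpha genes and 2 beta genes in the 18 neuronal clusters (x axis), 1 point per library, circles for replicate 1 and triangles for replicate 2, colored by condition, with a black line at the mean. Scn3a peaks in n06, n07 and n09, while Scn2b has its highest means in n18 (503 CPM) and n17 (416 CPM).

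Calcium channel alpha1 genes differed from the sodium channel genes in where they were highest. Summed over the 10 alpha1 genes, n07 held 950.4 ± 51.9 CPM (905 to 1040 CPM) and n17 356 ± 28.7 CPM (318 to 389 CPM), with no overlap of libraries. Summed over the 7 sodium alpha genes, n17 held 819.7 ± 112 CPM and n07 672 ± 62.3 CPM, and their ranges met. Against n07, n17 thus had the higher mean of summed sodium channel RNA and the lower of summed calcium channel RNA. This describes n17 and not M/T cells as a whole. In the smaller M/T clusters, Cacna1i alone was 361 ± 169 CPM in n16, and Cacna1a was 209 ± 193 CPM in n15.

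Both L-type genes of neurons were highest in n07 and n06. Cacna1c, an L-type pore that couples depolarization to transcription, was 159.8, 188 and 199.6 CPM in n07 and 165 ± 27.9 CPM in n06. It was 109 ± 18.6 CPM in n11, 53.7 ± 5.84 CPM in n04 and 5.16 ± 4.84 CPM in n02, so that every library of the first 3 lay above the immature cells and every library of n02 below them. Cacna1d, the L-type pore that opens at lower voltages, was 133 ± 20.5 CPM in n07 and 131 ± 20.1 CPM in n06, and 11.5 ± 2.31 CPM in n04. Cacna1f and Cacna1s, the L-type pores of the retina and of skeletal muscle, stayed under 20 CPM in every cluster.

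Among genes of presynaptic channels, Cacna1a (P/Q-type) and Cacna1b (N-type) had their highest means in n15, at 209 ± 193 CPM and 149 ± 92.2 CPM, with the lowest library at 0 for both. Outside n15, Cacna1a ranged from 8.97 ± 8.63 CPM in n01 and 40.7 ± 10.2 CPM in n04 to 114 ± 14.6 CPM in n17. Cacna1e, the R-type pore of dendrites and spines, was 193 ± 27.4 CPM in n07, 189 ± 25.8 CPM in n06 and 187 ± 94.9 CPM in n15, which did not differ beyond their spread. In n04 it was 13.8 ± 5.16 CPM and in n02 7.71 ± 5.81 CPM.

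The T-type genes, whose channels open near rest and drive rebound bursts, differed in where they were highest. Cacna1h was 105, 113 and 121 CPM in n07, above the 66.4, 78.1 and 104 CPM of n06 in every library. Cacna1g was 70.6 ± 46.7 CPM in n09 (19.7 to 152 CPM), 54.9 ± 14.9 CPM in n06 and 54.0 ± 10.4 CPM in n07, with ranges that overlapped. Cacna1i was 240.3, 283 and 682 CPM in n16, whereas the other M/T clusters held 19.4 ± 11 CPM (n17) and 14.6 ± 23.8 CPM (n15). As a share of the UMIs of the 3 T-type genes, Cacna1i made up 93.3 ± 7.90% in n16 and 91.7 ± 12.3% in n18 (over 5 libraries), Cacna1h 59.0 ± 20.4% in n17 and Cacna1g 59.4 ± 23.4% in n09 and 51.1 ± 10.7% in n03. Among the M/T clusters n16 was led by Cacna1i and n17 by Cacna1h, while n15 had 20 UMIs of these genes in all, 13 of them of Cacna1h. Their sizes were 116 cells for n16, 90 for n15 and 927 for n17.

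**Figure D3:**
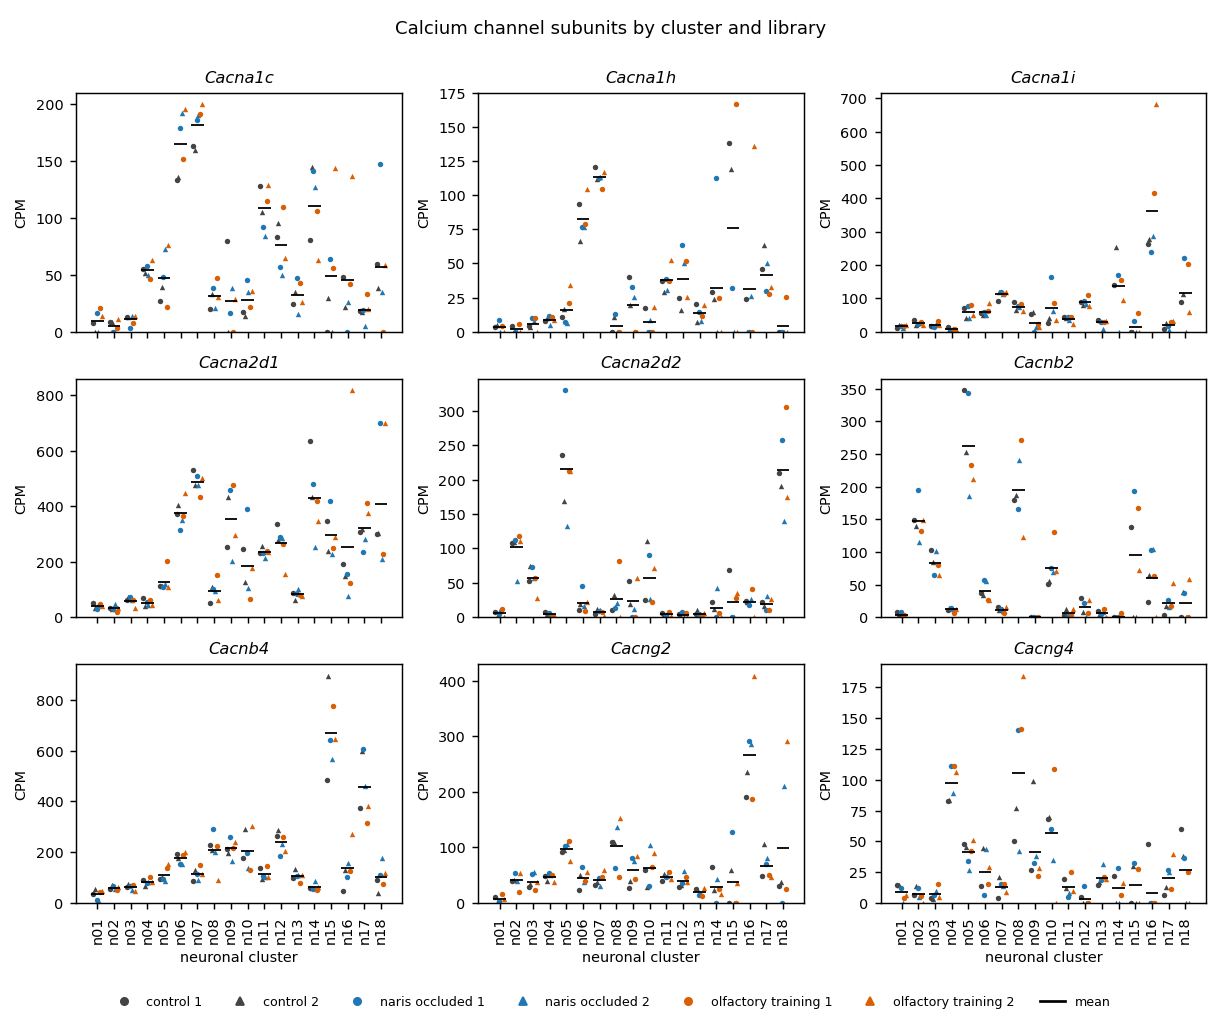
Levels in CPM (y axis, linear) of 9 calcium channel genes in the 18 neuronal clusters (x axis), 1 point per library, circles for replicate 1 and triangles for replicate 2, colored by condition, with a black line at the mean. Cacna1i and Cacng2 stand out in n16, Cacna2d2 and Cacnb2 in n05 among others, and Cacng4 is low in most clusters other than n04 and n08.

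Alpha2delta genes differed most between n07 and the PGC clusters n02 and n05. Among alpha2delta genes, Cacna2d1 (a target of gabapentin) was 434, 488 and 531 CPM in n07 and 32.8 ± 10.00 CPM in n02. Cacna2d2 had the reverse order, with 132, 212 and 329.7 CPM in n05, 102 ± 24.1 CPM in n02 and 7.74 ± 3.75 CPM in n07. It was as high outside the PGCs, at 213 ± 59.8 CPM in n18, where n05 was the higher in only 3 of 6 libraries. As shares of alpha2delta UMIs, Cacna2d1 made up 95.6 ± 1.66% in n07 and Cacna2d2 70.0 ± 9.61% in n02 and 57.0 ± 7.62% in n05. This was no division of PGCs from GCs, since Cacna2d2 made up 14.9 ± 11.6% in the PGCs of n08 and 47.4 ± 2.43% in the granule cells of n03. Cacna2d3 was highest in n10 at 77.5 ± 34.8 CPM, and its share was 25.6 ± 6.04% in n04.

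The beta genes, whose products hold the pore at the membrane and tune inactivation, showed 3 patterns. Cacnb2 was 185, 243 and 347 CPM in n05, 195 ± 53.3 CPM in n08 and 147 ± 26.6 CPM in n02, so that all 3 PGC clusters led, followed by 94.9 ± 83.8 CPM in n15 and 82.9 ± 16.9 CPM in n03, while n07 had 11.8 ± 3.71 CPM and n09 had no UMI in any library. Cacnb3 was 238, 264 and 277 CPM in n11 and 279 ± 33.0 CPM in n12, and it made up 63.3 ± 2.97% of the beta UMIs of n11 and 67.0 ± 17% of those of n01. Cacnb4, the subunit lost in the lethargic mouse, was 485, 644 and 896 CPM in n15 and 316, 421 and 607 CPM in n17. It made up 78.2 ± 11.4% and 79.5 ± 3.61% of beta UMIs there, against 39.9 ± 15.9% in n16. Cacnb1, the beta subunit of muscle, did not exceed 40.4 ± 14.7 CPM, in n06.

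Of the TARP genes, Cacng2, which encodes stargazin, was 188, 261 and 409 CPM in n16, above all libraries of the next cluster, n08 (47.1 to 154 CPM). Cacng4 was the 1 TARP gene led by the immature cells and n08, with 82.7, 97.4 and 111 CPM in n04 and 106 ± 57.7 CPM in n08, against 7.13 ± 4.64 CPM in n03. Its neighbor on chromosome 11, Cacng5, was 152 ± 30.5 CPM in n03, 212 ± 59.6 CPM in n17 and 36.7 ± 4.88 CPM in n04, so the order of n03 and n04 was opposite in the neighboring genes. Of TARP UMIs, Cacng4 made up 42.9 ± 4.61% in n04 and Cacng5 60.5 ± 6.18% in n03. Cacng7 was 244 ± 45.9 CPM in n17 and 29.8 ± 5.69 CPM in n04, and Cacng3 was 58.2 ± 14.7 CPM in n07. Cacng6, a gamma subunit outside the TARPs, reached the level of 20 CPM in n17 only, at 22.6 ± 8.74 CPM. The 6 genes that stayed under 20 CPM in every neuronal and nonneuronal cluster were Cacna1f, Cacna1s, Cacna2d4, Cacng1, Cacng8 and Scn4b.

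For 32 of the 37 genes no nonneuronal cluster reached the highest mean among neurons, and only 2 of the 31 genes above 20 CPM led in a nonneuronal cluster. These counts were not made over all genes, so they show no trait particular to channel genes. Cacng4 was 336, 466 and 509 CPM in oligodendrocyte precursor cells (OPCs), at 453 ± 61.2 CPM, and 53.5 CPM in the next cluster, OEC2. The 3 OPC markers summed to 1809 CPM in OPCs and 7.0 CPM in n04 (3.6 to 12.8 CPM), where Cacng4 was also high. Scn3b was 169 ± 16.2 CPM in the olfactory ensheathing cells of OEC1, against 63.5 CPM in OEC2. OPCs were also the highest nonneuronal cluster for Scn3a (76.1 ± 11.5 CPM), Scn2a1 (45.3 ± 10.0 CPM), Scn8a (39.9 ± 5.98 CPM) and Cacng7 (76.9 ± 18.8 CPM). Mural cells, the contractile cells of vessels, led the nonneuronal clusters for Cacna1c (59.8 ± 19.8 CPM in Mural2) and Cacna1h (50.3 ± 19.5 CPM). Cacnb4 was 89.1 ± 11.4 CPM in myelinating oligodendrocytes.

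The study ordered the interneurons born in adult life from n04 along axis A (the 8 clusters n02, n03, n05, n08, n10 to n12 and n14) and axis B (the 3 clusters n06, n07 and n09). Levels of each axis, with the cells of its clusters summed in each library, were set against n04 of the same library as log2 ratios of CPM + 1. Summed sodium channel alpha RNA was 132 ± 22.1 CPM in n04, 287 ± 35.2 CPM on axis A and 637 ± 63.3 CPM on axis B, which gave log2 ratios of 1.12 ± 0.18 and 2.27 ± 0.24. Summed calcium channel alpha1 RNA was 167 ± 22.2 CPM, 331 ± 34.6 CPM and 892 ± 58.4 CPM, with log2 ratios of 0.98 ± 0.20 and 2.42 ± 0.17. Both sums were above n04 in 6 of 6 libraries on either axis. Of the 31 genes, 20 were higher on axis A and 24 higher on axis B in every library, as were 36.2% and 38.3% of the 10677 genes with 20 CPM in a neuronal cluster. Cacng4 was the 1 channel gene lower in every library on both axes. The median over the 31 genes was 1.08 on axis A and 1.44 on axis B, and over those 10677 genes it was 0.18 and 0.28. The median of UMIs per cell was 1668 in n04, 882 in n07 and 730 in n06, and the median mitochondrial share was 8.44%, 17.4% and 15.2%. Both moved with n06 and n07, the larger clusters of axis B. In n09, also on axis B, they were 1291 UMIs and 9.52%. In n14 of axis A they were 690 UMIs and 29.7%, and the other clusters of axis A had at least 1416 UMIs and at most 8.26%. In cells with at least 1000 UMIs the axis B ratios of the sums were 2.13 and 2.29, and with mitochondrial UMIs left out of the totals they were 2.39 and 2.54.

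Most pore genes were above n04 on axis B in every library, by unequal amounts. Cacna1e had log2 ratios of 3.75 ± 0.60 on axis B and 2.00 ± 0.62 on axis A, Cacna1i 3.59 ± 0.77 and 2.56 ± 0.74, Cacna1d 3.37 ± 0.23 and 1.82 ± 0.41, and Cacna1h 3.36 ± 0.39 and 1.08 ± 0.45. The L-type gene Cacna1c stood lower, at 1.60 ± 0.17 on axis B and −0.0042 ± 0.28 on axis A. Scn1a stood at 3.79 ± 0.52 and 2.27 ± 0.43 and Scn2a1 at 3.27 ± 0.26 and 2.27 ± 0.19. Scn3a, already present in immature cells, stood at 1.51 ± 0.23 on axis B and 0.16 ± 0.20 on axis A. The embryonic alpha gene was therefore higher than in n04 on axis B in every library and higher in 5 of 6 on axis A, by less than its spread. Scn7a had no UMI in n04, and against the level that 3 counts over the cluster would give it was at least 11.2-fold higher on axis A and at least 10.8-fold higher on axis B. Cacng4 was lower by log2 ratios of −2.44 ± 0.36 on axis A and −2.38 ± 0.75 on axis B. Cacng2, whose product is a related TARP, had ratios of 0.12 ± 0.26 and −0.09 ± 0.46.

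Set directly against each other, 20 of the 31 genes were higher on axis B than on axis A in all 6 libraries and 4 were higher on axis A in all 6, against 28.1% and 27.8% of the 10677 genes. The median log2 ratio of axis B to axis A was 0.92 over the 31 genes and 0.05 over the 10677. Cacna1h had the largest ratio towards axis B, a log2 ratio of 2.29 ± 0.31 (1.94 to 2.71), followed by Cacna1e at 1.75 ± 0.17. The genes higher on axis A included Cacna2d2 (−2.11 ± 0.42), Cacnb2 (−2.06 ± 0.27) and Scn2b (−0.73 ± 0.29). These 3 encode accessory subunits, but other accessory genes lay towards axis B in all 6 libraries. Among them were Cacna2d1 (1.52 ± 0.16), Cacng3 (1.23 ± 0.34) and Scn3b (0.99 ± 0.31). The plot of ratios shows axis B to the right of axis A for most pore genes and to the left for Cacna2d2, Cacnb2 and Scn2b.

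**Figure D4:**
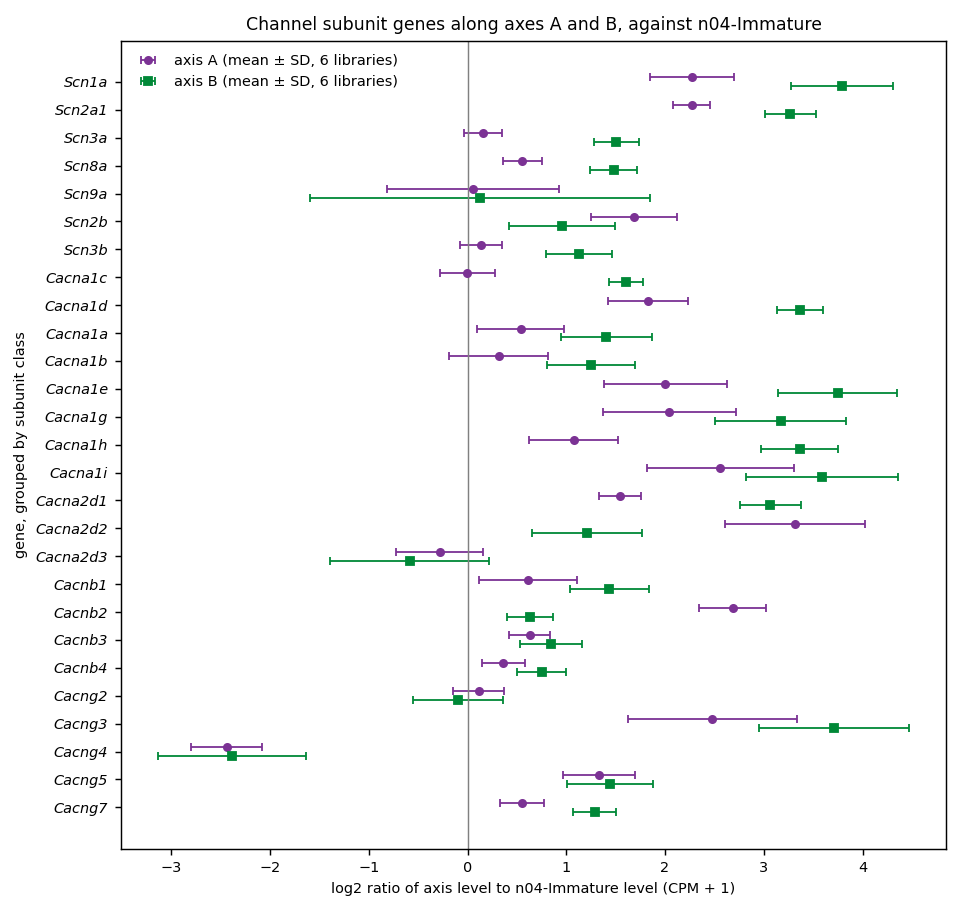
Log2 ratio of the level on axis A (purple circles) and axis B (green squares) to the level of n04, on CPM + 1 (x axis), for 27 channel genes (y axis, grouped by subunit class), with means and SD over 6 libraries. The 2 genes with no UMI in n04, Scn7a and Cacng6, are left out, Cacng4 lies at −2.44 and −2.38, and Cacna1e reaches 3.75 on axis B.

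Whether deprivation or training altered these genes within a cell type was tested on counts summed per library, in each of 34 clusters with at least 20 cells in every library (14 neuronal and 20 nonneuronal), with edgeR's quasi-likelihood test. After edgeR's filter on low counts, 29 of the 37 genes could be tested in at least 1 cluster, as 310 pairs of gene and cluster. In the nonneuronal clusters Astro2, Mes2, MicroG3, Mono and Mφ no channel gene passed the filter. The genes left without a test were Cacna1f, Cacna1s, Cacna2d4, Cacng1, Cacng6, Scn4b, Scn7a and Scn9a. No pair passed a Benjamini-Hochberg adjusted p of 0.05 in the 3 comparisons, by edgeR or by DESeq2. Over all genes, 0.0624% of 172986 pairs passed between occluded and control, 0.0931% between trained and control and 0.178% between trained and occluded libraries. The smallest adjusted p of a channel gene, by edgeR, was 0.426, 0.454 and 0.176 in that order. Leaving out naris occluded replicate 1, trained replicate 1 or trained replicate 2 gave 1 call each between trained and occluded libraries, among them Scn2a1 in n02 without trained replicate 1 (log2 fold change −3.73, edgeR adjusted p = 0.0439). The p-values measure the spread between pools of mice, with 2 libraries per condition, males in replicate 1 and females in replicate 2. The fit had no term for sex, so any difference between the sexes is part of that spread.

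At an unadjusted p under 0.05 in edgeR, 21 pairs (6.77%) differed between occluded and control libraries, against 4.78% of pairs over all genes, and 18 of these 21 were lower after occlusion. Between trained and control libraries there were 16 pairs (5.16%, against 5.74%), 10 of them higher. Between trained and occluded libraries there were 32 pairs (10.3%, against 7.26%), 23 of them higher after training. DESeq2 gave 1, 1 and 5 pairs at its unadjusted p under 0.05 and gave no adjusted p for 17, 0 and 7 of the pairs. Over all 310 pairs the median log2 fold change was −0.08, 0.04 and 0.12, and over all genes 0.00 in each. Signs leaned the same way, with 177 of 310 pairs lower after occlusion than in control and 204 of 310 higher after training than after occlusion. Counts by direction were not made over all genes, neither for all pairs nor for those with a small p. The counts by direction given here therefore show no lean particular to channel genes. These comparisons share libraries, and pairs of 1 gene in several clusters share the library too.

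Among the 3 pairs with the smallest p in each comparison, 8 are described, with CPM after TMM scaling in replicates 1 and 2. Scn3b in n06 was 159.5 and 119 CPM in occluded, 68.0 and 48.0 CPM in trained and 112 and 70.8 CPM in control libraries, and its log2 fold change of trained over occluded was −1.21 ± 0.35 (SE, edgeR adjusted p = 0.176). Scn3a in n11 was 189 and 172 CPM after training and 139.8 and 103 CPM after occlusion, with 142 and 119 CPM in control, and a log2 fold change of 0.59 ± 0.18 (edgeR adjusted p = 0.199). Scn2a1 in n02 was 28.5 and 4.02 CPM after training, from 9 and 1 UMIs, and 45.1 and 76.4 CPM after occlusion, with a log2 fold change of −1.70 ± 0.53 (edgeR adjusted p = 0.357). In each of these 3 pairs both trained libraries lay on 1 side of both occluded libraries, as in 35.6% of pairs over all genes.

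Against control, Scn2b in n03 was 16.3 and 23.6 CPM after training and 63.7 and 60.6 CPM in control, from 6, 5, 32 and 18 UMIs, with a log2 fold change of −1.70 ± 0.44 (edgeR adjusted p = 0.456). Cacng8, a TARP gene, in the astrocyte cluster Astro1 was 29.2 and 20.3 CPM after training and 11 and 13.7 CPM in control (log2 fold change 1.04 ± 0.36, edgeR adjusted p = 0.454). Scn1a in n05 was 107 and 69.9 CPM after training and 25.4 and 27.0 CPM in control (1.77 ± 0.66, edgeR adjusted p = 0.999). These levels rest on only 17, 7, 4 and 4 UMIs. Occluded libraries, at 82.5 and 23.2 CPM from 10 and 3 UMIs, overlapped with both. After occlusion, Cacng4 in Astro1 was 42.4 and 37.2 CPM and in control 64.7 and 65.3 CPM (−0.71 ± 0.20, edgeR adjusted p = 0.712). Scn8a in the ensheathing cells of OEC4 was 27.4 and 22.6 CPM after occlusion and 13.0 and 15.2 CPM in control (0.84 ± 0.30, edgeR adjusted p = 1.00). In these pairs, chosen for their small p, the compared libraries did not overlap. Over all genes this held for 34.8% of pairs between trained and control and 33.9% between occluded and control libraries. None of the pairs described passed the adjusted threshold, and their plot shows every library.

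**Figure D5:**
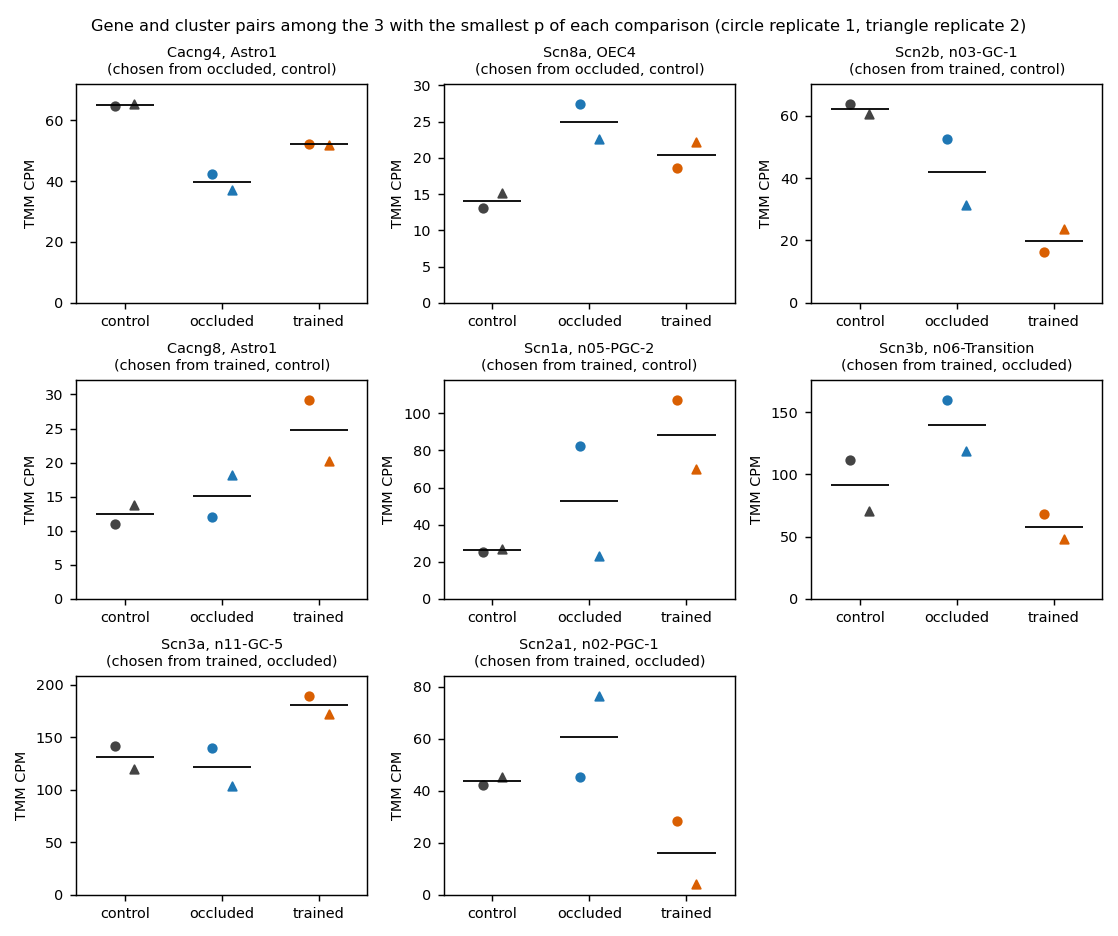
CPM after TMM scaling (y axis, linear from 0) of 8 pairs of gene and cluster among the 3 with the smallest p in each comparison, by condition (x axis), circles for replicate 1, triangles for replicate 2 and lines at the means of 2 libraries. The 2 compared groups do not overlap in any panel, as in 33.9% to 35.6% of pairs over all genes in the 3 comparisons. No pair passed the adjusted threshold, with a smallest edgeR adjusted p of 0.176.

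Between trained and occluded libraries, Scn3a was tested in 12 clusters and was higher after training in 8 of them, 4 at an unadjusted edgeR p under 0.05, and the other 3 brain alpha genes had at most 1 such cluster each. In n04 it was 102 and 77 CPM after training and 64.8 and 65.1 CPM after occlusion, a log2 fold change of 0.46 (0.07 to 0.84, edgeR adjusted p = 0.695). In n07 it was 238 and 252 CPM against 203 and 159.4 CPM, a log2 fold change of 0.40 (0.02 to 0.79, edgeR adjusted p = 0.639). The libraries of the 2 conditions did not overlap in either cluster, which was also so for 35.3% of all genes tested in n04 and 36.1% in n07, and control libraries lay between or among them. Scn3a was singled out after its values were seen, and the lean was not particular to it. Between trained and occluded libraries, Cacnb3 was higher after training in 20 of 24 clusters, 5 at an unadjusted edgeR p under 0.05. Cacnb4 was higher in 19 of 24, 2 at such a p, while Cacnb2 was lower in all 5 clusters tested. Over all genes, 7.26% of pairs between trained and occluded libraries had such a p. Counts of clusters per gene were not made over all genes, so those given here show no response particular to these genes.

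The intervals show how closely the differences were estimated, for 1 gene at a time and without adjustment. In n07, 21 of 24 channel genes tested had a 95% interval of the occluded and control difference within 1 log2 unit of 0 on both sides. For Cacna2d1 it ran from −0.45 to 0.24 between occluded and control and from −0.49 to 0.20 between trained and control libraries. In n11 the interval of Cacnb3 ran from −0.45 to 0.11 and from −0.31 to 0.25. In n04 18 of 24 genes had such an interval, and in n03 10 of 21. Over all 310 pairs the median of the distance from the estimate to either end of the interval was 0.76, 0.74 and 0.78 log2 units. Smaller differences were not detectable in a typical pair at this depth, even without adjustment. Larger ones also failed the adjusted threshold, such as the −1.70 of Scn2b in n03 between trained and control libraries.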

How the data were processed

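RNA of olfactory bulb cells was captured with the 10x Chromium 3′ v2 chemistry. The authors deposited raw UMI counts per gene and barcode, made with Cell Ranger 2.0.0 and mm10 per the submitters' processing notes, and the cluster of each cell from Seurat 2.2.1, with doublets removed per the methods. The deposited fraction of mitochondrial UMIs per cell was used as it stands. Reads at the 3′ end do not tell isoforms apart.

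Counts were summed per cluster and library. Conditions were compared with edgeR 4.0.16 (quasi-likelihood, TMM factors, its low-count filter, all 6 libraries in 1 fit) in clusters with at least 20 cells in every library, adjusted by Benjamini-Hochberg over all genes of a cluster. DESeq2 1.42.0 was the alternative. The fits were tested on simulated data. With 2 libraries against 2, an exact permutation test of 1 gene cannot go below p = 0.333, so none was made. Axis ratios used a pseudocount of 1 CPM. Genes reaching 20 CPM could be named, and between conditions the 3 pairs with the smallest p of each comparison; a few genes are counted in sums and totals and not reported here by name. The genes and lists were chosen with earlier results of these data known. A further 755 neurons had a cluster only in the first annotation and were left out of the levels.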

Additional observations from a re-analysis of the deposited data

How the results depend on the processing

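For the calls, the counts of genes and the summed axis ratios, 98 values under other settings stayed close to those reported and 5 moved. These include 4 chosen after seeing the data that left n14 or n06 out of an axis. Only the ratios could change sign, and no summed ratio did. A ratio was called close if it stayed within 1 SD over the 6 libraries. Leaving out 1 library cannot move a mean that far, so for the ratios those settings are no check. With equal weight of clusters in place of cells, the axis B ratio was 2.01 for summed sodium channel alpha and 2.198 for summed calcium channel alpha1 RNA, and the axis A ratios were 1.29 and 1.15. Calls among channel genes between trained and occluded libraries ranged from 0 to 1 when 1 library was left out, and were 0 in the other comparisons and under RLE size factors, DESeq2, no filter and cells with at least 1000 UMIs. With no filter, 58, 37 and 76 pairs had an unadjusted edgeR p under 0.05. The share over all genes was not computed for this setting, and the cause was not tested. With the replicate block the calls were 0 in each comparison. Deviations of libraries with the same number correlated between 0.0639 and 0.187 in 5 clusters, over 2 pairs only, and the number marks sex. Scn2a1 in n02 passed the threshold without trained replicate 1 (−3.73), which leaves 1 trained library, assumed to vary like the others. The 9 pairs with the smallest p kept their direction in each alternative that could test them, 7 of them in cells with at least 1000 UMIs. In all 9 the compared libraries did not overlap. Leaving out 1 library could therefore hardly reverse them, and those settings are no check of direction. Of 62 ratios of single genes to n04, 26 moved by over 1 SD with a pseudocount of 10 CPM, 14 with equal weights, 3 in cells with at least 1000 UMIs and 2 in control libraries only. Ratios near 0 changed sign in some settings for Cacna1c, Cacng2 and Scn9a, and for Cacna2d3 on axis A from −0.28 to 0.41 with equal weights. The genes at 20 CPM were 26 with a limit of 50 CPM, and 15 genes were highest in an M/T cluster in control libraries only. Small clusters limit the levels in n15, n16 and n18, and few UMIs limit most pairs.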

Other observations

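The 28 genes of channel partners that were listed, such as calmodulins, ankyrins and scaffold proteins, were tested in 315 pairs of gene and cluster, and none passed an adjusted p of 0.05 in the 3 comparisons by edgeR. At an unadjusted edgeR p under 0.05 there were 12 pairs between occluded and control, 16 between trained and control and 20 between trained and occluded libraries. Over all genes 4.78%, 5.74% and 7.26% of pairs did so, and the partners lay below these shares. Calm2 and Calm3 encode calmodulin, the calcium sensor that binds the tail of both channel families. Calm2 was 5829 ± 421 CPM in n12 and 5095 ± 265 CPM in n11, and Calm3 was 768 ± 24.1 CPM in n11. Unc80, an auxiliary subunit of the sodium leak channel, was 1055 ± 318 CPM in n15, and was named after its values were seen.

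The 755 neurons that had a cluster only in the first annotation, 660 of them from N11, had 2418462 UMIs in all, as 1 value over all libraries. Their Cacna2d1 was 376 CPM, Cacna1e 201 CPM, Scn3a 169 CPM, Scn2a1 157 CPM and Scn2b 17.4 CPM.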
